A study of Saccharomyces cerevisiae with 10 samples.

Results

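Ribosome biogenesis factors are the proteins that process and modify ribosomal RNA and assemble it with ribosomal proteins, first in the nucleolus and then on the way to the cytoplasm. A list of 60 such genes was followed here in yeast without EDC3 and in its wild type, and 59 of them were measured. They were matched by gene symbol to the probe sets (groups of short oligonucleotides) that the platform annotation assigns to 1 gene. The 59 genes had 77 probe sets of the 9275 on the array that are not controls, and they are 59 of the 5656 genes with such a probe set. NOP10 had none. The list was divided by role into 8 genes for the core proteins of small nucleolar ribonucleoproteins (snoRNPs, 7 measured), 25 for the large ribosomal subunit and 27 for the small one. RRP5 and RRP12, placed with the small subunit, and HAS1, placed with the large one, act on both. The members lie on 14 chromosomes, and UTP9 and RIX1 are the 1 pair of members that are next to each other among protein-coding genes in the RefSeq gene table.

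The edc3Δ strain is named CFY25 in the sample labels and SYY14 in the design text, which calls it isogenic to the wild-type strain HFY114. Both are Saccharomyces cerevisiae, cultured without treatment in YEPD, a rich medium, at 30 °C, and labelled cRNA from 6 µg of total RNA of each sample was hybridised to its own Affymetrix S98 array. The deletion is represented by 1 strain. There were 5 arrays of edc3Δ and 5 of wild type, called biological replicates by the labels and paired by the experiment letters A, B, C, E and G. Edc3 stimulates removal of the cap from mRNA, and the comparison asks which RNA levels change without it.

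In growing yeast a large share of transcription goes into making ribosomes. The snoRNP core proteins carry guide RNAs that direct ribose methylation (box C/D) or pseudouridylation (H/ACA) of ribosomal RNA. Small-subunit factors build the processome on the nascent transcript, whose cleavage separates the precursors of the subunits, and large-subunit factors then fold and trim the other precursor. The genes of these factors are known to be expressed together and to follow the growth rate of the cell.

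These are bulk signals, in which fewer cells with an RNA and less of it per cell cannot be told apart. Signals are the authors' MAS5 intensities on a linear scale, scaled to a common level per array. Differences are log2 edc3Δ minus wild type, and SE is limma's standard error. A probe set was called at an adjusted p under 0.05 (limma, Benjamini-Hochberg over 6492 probe sets, two-sided). The EDC3 signal averaged 1.38 ± 0.85 in edc3Δ and 469 ± 8.93 in wild type (SD, n = 5 each), so the arrays matched their strain labels. Each edc3Δ array was given a floor, the higher of its EDC3 signal and its brightest mouse control probe set (0.9 to 4.8), and against the mean of these floors on the log2 scale EDC3 was at least 222-fold lower. The arrays of experiments E and G were nearly alike within a strain. Their log2 signals correlated across probe sets at 0.996 in edc3Δ, the highest of all array pairs, and at 0.994 in wild type. The lowest value over all array pairs, within and between strains, was 0.959, and other pairs within a strain are not given separately. In deviations from the strain means, E of edc3Δ was nearest to E of wild type (correlation 0.652), and G to G (0.692). The labels do not say whether E and G of a strain are 1 RNA, in which case there are 4 replicates. The instrument records give fluidics module 2 for edc3Δ and module 1 for wild type in A, B and C, so module and strain cannot be told apart there.

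Most ribosome biogenesis genes had a small difference below 0, and no single member was called without a block. The list as a whole was not tested. Of the 59, 43 had a difference below 0, with a median of -0.10, while 51.1% of all 6492 probe sets were below 0, with a median of 0.00. The differences of single members ran from -0.36 for EBP2 to 0.29 for ENP1. limma called 0 members lower or higher, against 0.0462% of all probe sets called lower and 0.0308% called higher. At an unadjusted p under 0.05 there were 5 members lower and 0 higher, against 2.16% and 2.66% of all probe sets. With the experiment letter as a block, limma called 2 members lower, CBF5 and ERB1, and 0 higher, against 0.216% and 0.231% of all probe sets. In that fit 23 of the 59 members were lower at an unadjusted p under 0.05 and 0 were higher, against 11.4% and 11.7% of all probe sets.

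Of the 59 members, 20 were lower in edc3Δ in all 5 experiments, which is 33.9%, against 10.2% of all probe sets. In the other direction, 0 members were higher in all 5, against 10.2% of all probe sets. With E and G averaged as 1 experiment, a setting added after the data were seen, 25 members were lower in all and 1, UTP4, was higher in all, against 12.2% and 11.8% of all probe sets. In A, B and C alone the counts were 36 and 1, again UTP4, against 17.4% and 16.6%. EBP2 was the 1 member whose edc3Δ arrays all lay below the wild-type arrays, against 0.632% of all probe sets, and 0 members lay wholly above, against 0.57%.

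**Figure D1:**
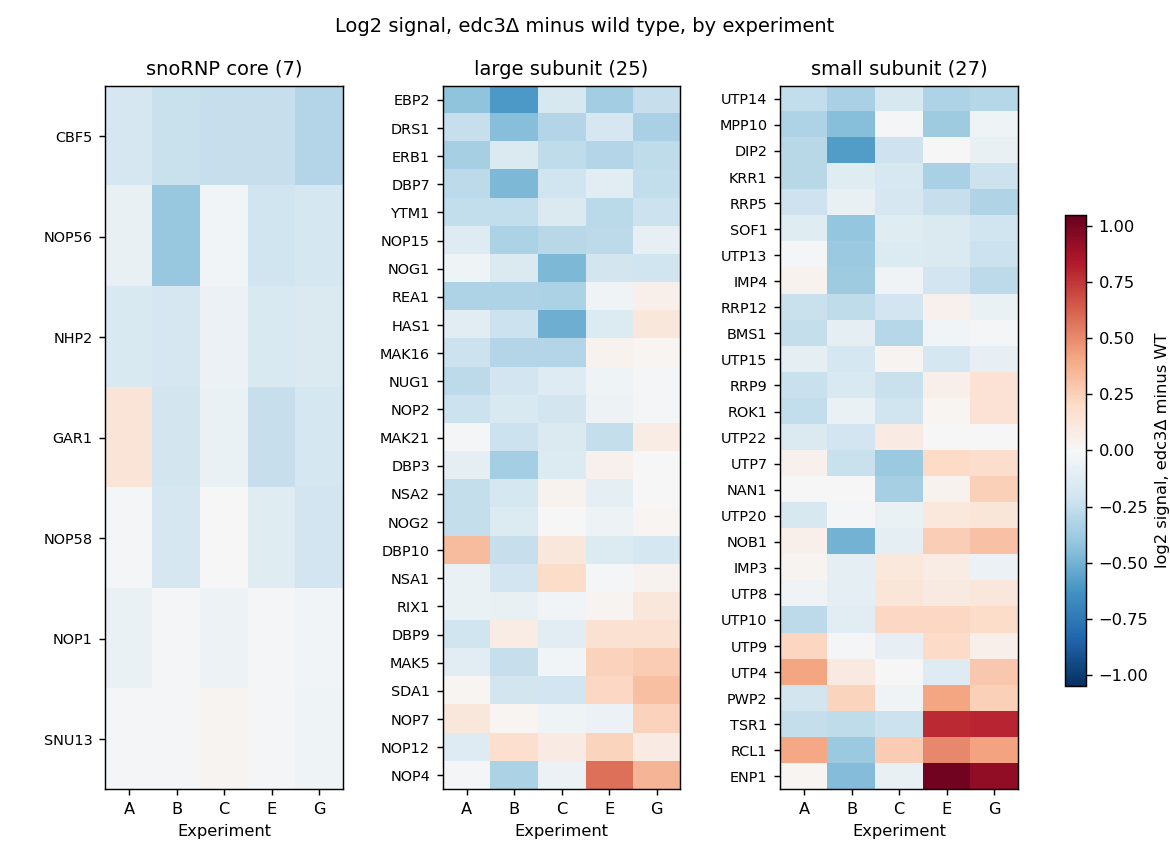
Each cell is the log2 signal of edc3Δ minus wild type for 1 gene (row) in 1 experiment (column), with blue for lower and red for higher in edc3Δ, in 3 panels by role, sorted by the mean difference. Most rows are blue in A, B and C. In E and G the snoRNP core stays blue, while many subunit factors are near 0 or red, with ENP1 at 1.01 and 0.93.

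The size of the difference depended on the experiment. The median over all 59 members was -0.14 in A, -0.20 in B, -0.11 in C, -0.04 in E and 0.00 in G, and the number of members below 0 was 47, 54, 46, 35 and 29. The medians over all probe sets stayed between -0.03 and 0.01 in the same experiments. The roles did not follow one course. The snoRNP core had medians of -0.07, -0.18, -0.05, -0.16 and -0.19 in A, B, C, E and G. With the differences averaged per gene, its median was -0.06 over A, B and C and -0.17 over E and G. In 1 of its 7 genes the difference was higher in E and G. The large-subunit factors had medians of -0.14, -0.22, -0.15, -0.06 and 0.02. The small-subunit factors had medians of -0.15, -0.18, -0.09, 0.03 and 0.05, below 0 in A to C and above 0 in E and G. Without the 3 factors of both subunits, the overall medians were -0.11 for 24 large-subunit and -0.04 for 25 small-subunit genes. These medians are descriptions, and the difference between roles was not tested.

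**Figure D2:**
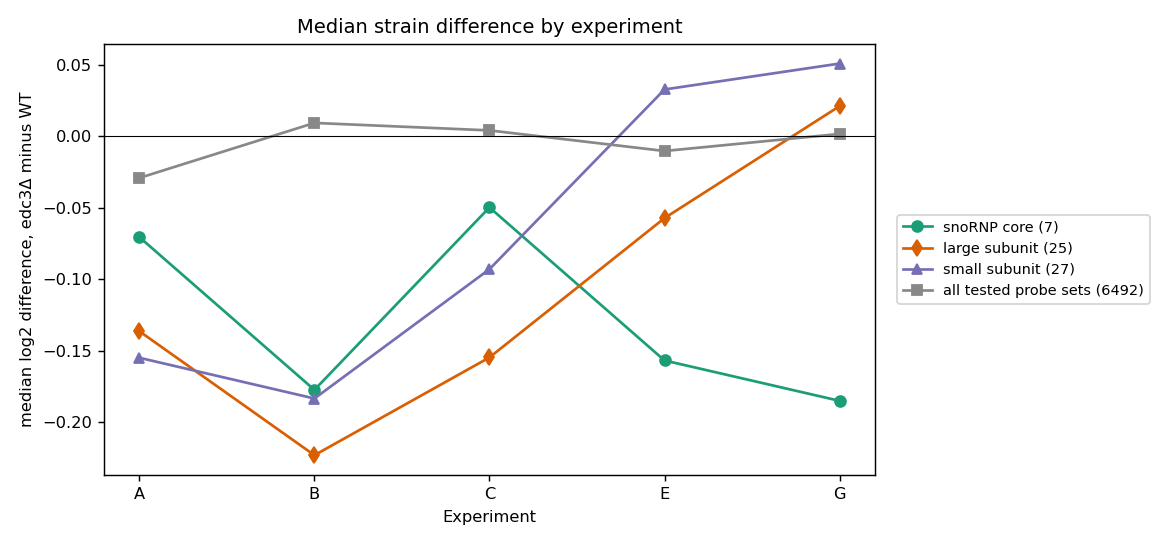
The median log2 difference, edc3Δ minus wild type, is plotted for each experiment for the snoRNP core (7 genes), the large-subunit factors (25), the small-subunit factors (27) and all 6492 tested probe sets. The probe sets as a whole stay between -0.03 and 0.01, the snoRNP core is below 0 in each experiment, and the small-subunit factors lie at 0.03 and 0.05 in E and G.

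Among the snoRNP core genes all 7 measured were below 0, with a median of -0.11 and a range of -0.24 to -0.01. CBF5 (YLR175W), the pseudouridine synthase of H/ACA particles, had the largest difference of them. Its signal in A, B, C, E and G was 1315.5, 1254.5, 1289.9, 1552.6 and 1613 in edc3Δ, against 1485.6, 1473.4, 1524.8, 1838.3 and 1998.5 in wild type. The strains overlapped across experiments, since E and G were the high arrays of both, but edc3Δ was lower within every letter, by -0.18 to -0.31. The difference was -0.24 ± 0.11 (SE; 0.04 with the block), or 0.85-fold, with a limma adjusted p of 0.999 without the block and 0.0466 with it. The blocked call was lost with E and G averaged (limma adjusted p = 0.188), in A, B and C alone (0.432), and without any one of the 5 experiments (0.0544 to 0.205). Its highest limma adjusted p under the 31 settings was 0.9999. The lowest, 0.0293, came from E and G alone, whose arrays are nearly alike within a strain and may be 1 RNA.

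The other H/ACA proteins were lower by less. NHP2, an RNA-binding subunit, read 1734.8, 1848.7, 2072.1, 2450.9 and 2384.8 in edc3Δ, against 1939.8, 2090.5, 2159.6, 2732.2 and 2651.7 in wild type. The strains overlapped, but edc3Δ was the lower in each letter, by -0.06 to -0.18. Its difference was -0.14 ± 0.13 (SE, limma adjusted p = 0.999; 0.0887 with the block). GAR1, which helps bind and release the substrate RNA, differed by -0.11 ± 0.17 (SE) and was lower in 4 of 5 experiments, with 0.13 in A and -0.24 in E.

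All 4 box C/D genes were below 0, and none was called in either fit. NOP56, a scaffold protein of the particle, averaged 461 ± 35.5 in edc3Δ and 524 ± 58.2 in wild type (SD, n = 5 each), a difference of -0.18 ± 0.10 (SE, limma adjusted p = 0.999; 0.14 with the block), lower in all 5 experiments. Its partner NOP58 differed by -0.10 ± 0.14 (SE) at its brightest probe set and by -0.08, 0.04 and 0.22 at its other 3, so its probe sets disagreed in sign. NOP1, the methyltransferase fibrillarin, was lower in all 5 experiments by -0.02 to -0.07 (difference -0.04 ± 0.15, SE). SNU13, which binds the kink-turn of the guide RNA, differed by -0.01 ± 0.11 (SE), with experiments from -0.05 to 0.03. The unblocked SE of both is far larger than their spread within letters (SD of the 5 differences 0.02 and 0.03), and the signals of the strains moved together from experiment to experiment.

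Of the 25 large-subunit factors, 19 were below 0, with a median of -0.11, and 9 were lower in all 5 experiments. EBP2 (YKL172W), an early nucleolar factor of this subunit, had the largest difference of all members. Its signal in A, B, C, E and G was 264.4, 210.3, 250.6, 249.8 and 260.9 in edc3Δ, against 353.9, 319.8, 280.9, 321.5 and 309.2 in wild type. Every edc3Δ array was below every wild-type array. The difference was -0.36 ± 0.09 (SE), or 0.78-fold, and neither fit called it (limma adjusted p = 0.654; 0.0631 with the block). The exact two-sided permutation test gave 0.00794, the smallest p that 5 against 5 arrays allow, before adjustment. EBP2 is named for its small p on these same arrays, so this value adds no separate support.

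ERB1, YTM1 and NOP7 encode a complex needed for processing of the large-subunit precursor. ERB1 (YMR049C) read 1039.9, 873.4, 1047.7, 1227 and 1262.4 in edc3Δ in A, B, C, E and G, against 1326.2, 971.9, 1259.6, 1519.1 and 1522.5 in wild type. B was the low pair and E and G the high pairs, and within each letter edc3Δ was lower, by -0.15 to -0.35. The difference was -0.27 ± 0.14 (SE; 0.04 with the block), or 0.83-fold, with a limma adjusted p of 0.999 without the block and 0.0466 with it. The blocked call was kept without experiment B (limma adjusted p = 0.0448) and lost without A, C, E or G (0.0544 to 0.201), with E and G averaged (0.182) and in A, B and C alone (0.43). Its highest limma adjusted p under the 31 settings was 0.9999. The lowest, 0.0108, again came from the nearly alike arrays of E and G alone.

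YTM1 read 535.5, 488.8, 489.7, 664.6 and 664.5 in edc3Δ, against 641, 585.1, 545.1, 806.6 and 779 in wild type. E and G were again the high pairs, and edc3Δ was lower in every letter, by -0.15 to -0.28. The difference was -0.24 ± 0.14 (SE, limma adjusted p = 0.999; 0.06 with the block). NOP7, the third protein of the complex, differed by 0.05 ± 0.21 (SE), with experiments from -0.06 to 0.24, at a signal of 41.6 to 79.1 in edc3Δ and 42.9 to 82.5 in wild type. The complex thus held a member called with the block, ERB1, and one on the other side of 0, NOP7.

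**Figure D3:**
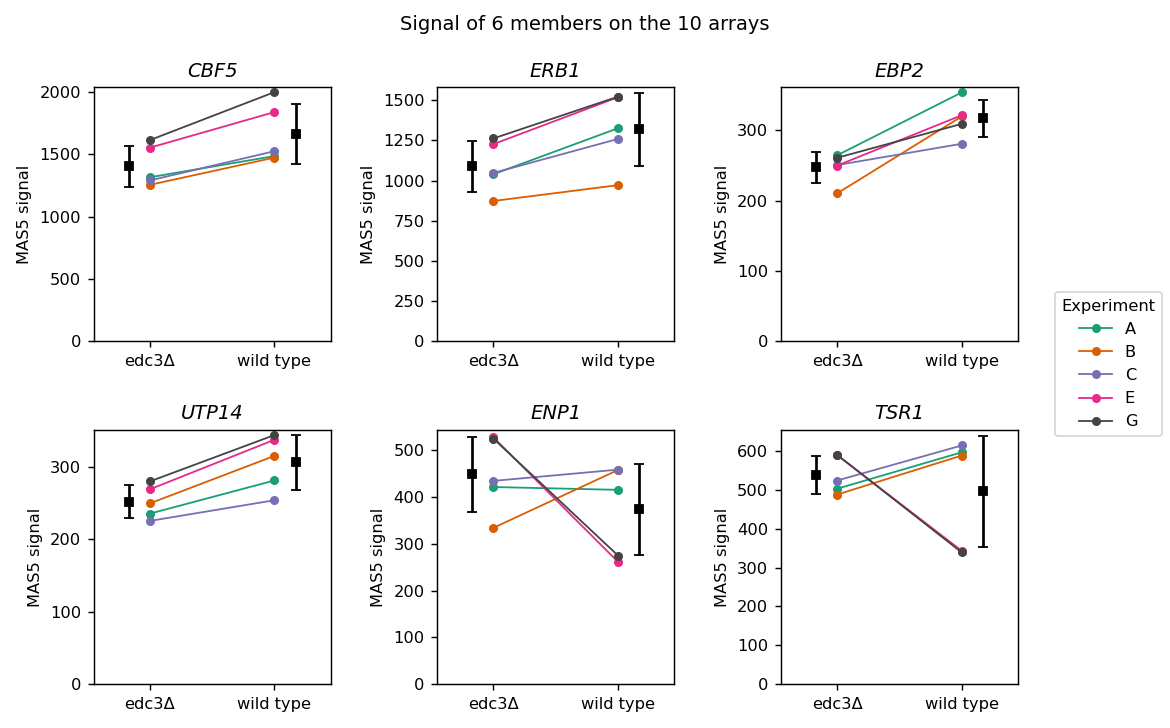
MAS5 signal (linear axes from 0) of CBF5, ERB1, EBP2, UTP14, ENP1 and TSR1 in edc3Δ (left) and wild type (right); points are arrays, lines join the arrays of 1 experiment and squares with bars are means with SD (n = 5). The lines of CBF5, ERB1, EBP2 and UTP14 all climb towards wild type, and those of ENP1 and TSR1 run the other way in E and G, where the wild-type arrays read 261 to 343.

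The RNA helicases of the large subunit, which unwind pre-rRNA and guide RNA pairings, had 5 of 7 members below 0. DRS1 averaged 158 ± 26.6 in edc3Δ and 194 ± 27.7 in wild type (SD, n = 5 each), lower in all 5 experiments, with a difference of -0.30 ± 0.14 (SE, limma adjusted p = 0.999; 0.0631 with the block). DBP7 was also lower in all 5, by -0.11 to -0.47 (difference -0.26 ± 0.26, SE). HAS1 differed by -0.18 ± 0.12 (SE), DBP3 by -0.11 ± 0.16 (SE), DBP10 by -0.03 ± 0.15 (SE), MAK5 by 0.02 ± 0.13 (SE) and DBP9 by 0.01 ± 0.12 (SE). None of these was called in either fit.

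The 3 GTPases, which act as checkpoints of large-subunit assembly, were all below 0. NOG1 differed by -0.22 ± 0.15 (SE) and NUG1 by -0.13 ± 0.18 (SE), each lower in all 5 experiments. NOG2 differed by -0.09 ± 0.20 (SE) and by -0.07 at its other probe set. None was called.

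REA1, a very large ATPase that pulls assembly factors off the precursor, was lower in A, B and C, by -0.33, -0.32 and -0.34, and near 0 in E and G, at -0.04 and 0.05. Over all experiments its difference was -0.19 ± 0.12 (SE, limma adjusted p = 0.999; 0.191 with the block). RIX1, of the complex that helps to remove the internal spacer, differed by -0.01 ± 0.21 (SE). SDA1, needed for late large-subunit maturation and export, differed by 0.03 ± 0.20 (SE), with -0.20 in C and 0.31 in G.

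Among the other nucleolar large-subunit factors, NOP15, an RNA-binding protein, was lower in all 5 experiments by -0.09 to -0.33, with a difference of -0.22 ± 0.11 (SE, limma adjusted p = 0.999; 0.0799 with the block). NOP2, an rRNA methyltransferase, was lower in all 5 as well, by -0.01 to -0.22. MAK16 had a difference of -0.16 ± 0.16 (SE), MAK21 of -0.11 ± 0.11 (SE), NSA2 of -0.10 ± 0.18 (SE) and NSA1 of -0.01 ± 0.16 (SE). On the other side of 0 were NOP12, at 0.09 ± 0.21 (SE), and NOP4, an RNA-binding protein, at 0.11 ± 0.23 (SE). NOP4 read 139.9, 127.9, 132.8, 279.1 and 252.4 in edc3Δ, against 141.6, 160.9, 138.4, 186.5 and 197.6 in wild type, below wild type in A, B and C and above it in E and G.

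Of the 27 small-subunit factors, 17 were below 0, with a median of -0.05, and 7 were lower in all 5 experiments. UTP14 (YML093W), a processome protein that activates a helicase, had the largest difference. Its signal in A, B, C, E and G was 235.3, 249.4, 225.3, 268.8 and 279.7 in edc3Δ, against 281.1, 315, 253.8, 337.2 and 343.7 in wild type. Within each letter edc3Δ was lower, by -0.17 to -0.34, though wild type C lay among the edc3Δ values. The difference was -0.28 ± 0.11 (SE), or 0.82-fold (limma adjusted p = 0.954; 0.0563 with the block).

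RRP5, a large RNA-binding protein required for both subunits, read 552.3, 535.9, 480.9, 521.3 and 523.3 in edc3Δ, against 641.9, 565.6, 544.1, 615.3 and 652.8 in wild type. Only wild type C lay within the edc3Δ values. It averaged 523 ± 26.5 in edc3Δ and 604 ± 47.5 in wild type (SD, n = 5 each), a difference of -0.21 ± 0.08 (SE, limma adjusted p = 0.977; 0.0799 with the block), lower in all 5 experiments. KRR1, with an RNA-binding KH domain, was lower in all 5 too, with a difference of -0.23 ± 0.11 (SE, limma adjusted p = 0.999; 0.0799 with the block). SOF1, a processome protein, differed by -0.20 ± 0.16 (SE) and BMS1, a GTPase, by -0.14 ± 0.14 (SE), and both were lower in all 5 experiments. RCL1, the partner of Bms1, went the other way at 0.24 ± 0.22 (SE), higher in 4 of 5 experiments with -0.39 in B. The helicase ROK1 differed by -0.07 ± 0.18 (SE), RRP9, a protein of the U3 snoRNP, by -0.08 ± 0.21 (SE), UTP7 by -0.04 ± 0.16 (SE) and UTP20 by 0.00 ± 0.12 (SE). UTP20 had 10 probe sets, 4 of them bright enough to test, which ran from -0.23 to 0.02.

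Each subcomplex of the processome with several genes on the list held differences of both signs. Of the 6 UtpA genes, whose products bind the start of the transcript first, 2 were below 0 and 0 were lower in all 5 experiments. UTP4 differed by 0.13, UTP9 by 0.07, UTP10 by 0.05, UTP8 by 0.04, NAN1 by -0.02 and UTP15 by -0.11, with SE of 0.11 to 0.18. Of the UtpB genes, DIP2 differed by -0.24 ± 0.09 (SE, limma adjusted p = 0.983; 0.154 with the block), UTP13 by -0.19 ± 0.14 (SE) and PWP2 by 0.13 ± 0.22 (SE). DIP2 was lower by -0.29, -0.59 and -0.22 in A, B and C and at 0.01 and -0.08 in E and G. UTP22, of UtpC, differed by -0.05 ± 0.11 (SE), and 1 other of its 6 probe sets was bright enough to test, at 0.02.

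MPP10, IMP3 and IMP4 encode a complex that joins the processome with the U3 snoRNA. MPP10 was lower in all 5 experiments, at 67.7 to 87.9 in edc3Δ and 70.4 to 105.1 in wild type, with a difference of -0.24 ± 0.12 (SE, limma adjusted p = 0.999; 0.145 with the block). IMP4 differed by -0.17 ± 0.15 (SE) and IMP3 by 0.01 ± 0.16 (SE). None of the 3 was called.

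The late small-subunit factors ENP1, TSR1, NOB1 and RRP12 are the last described. ENP1 (YBR247C), a factor that stays with the precursor into the cytoplasm, read 420.6, 333.6, 433.7, 526.5 and 523.8 in edc3Δ in A, B, C, E and G, against 414.6, 457.1, 457.7, 260.8 and 274.3 in wild type. TSR1 (YDL060W), a protein related to GTPases that was singled out after its values were seen, read 502.4, 487.4, 523.5, 589 and 589.7 in edc3Δ, against 596.1, 587.8, 613.6, 342.9 and 338.8 in wild type. Both were higher in edc3Δ in E and G, by 1.01 and 0.93 for ENP1 and by 0.78 and 0.80 for TSR1, where the wild-type arrays were the low ones. In A, B and C the differences were 0.02, -0.45 and -0.08 for ENP1 and -0.25, -0.27 and -0.23 for TSR1. Over all experiments neither was called (ENP1 0.29 ± 0.19 and TSR1 0.17 ± 0.18, SE; limma adjusted p = 0.999 for both, and 0.44 and 0.614 with the block). NOB1, the nuclease that makes the end of the small-subunit rRNA, differed by 0.01 ± 0.15 (SE), with -0.49 in B and 0.31 in G, and RRP12, an export factor, by -0.14 ± 0.16 (SE).

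Levels also differed between the experiments in both strains. In edc3Δ all 59 members were higher in E and G than in A, B and C, by a median of 0.42, against 42.9% of all probe sets and a median of -0.06. In wild type 52 of 59 were higher, by a median of 0.36, against 42.7% of all probe sets and a median of -0.06. ENP1 and TSR1 were among the 7 that were not, with 0.42 and 0.23 in edc3Δ, against -0.73 and -0.81 in wild type. Scans also differed, with 2.5 µm pixels scanned once in E, 3 µm pixels and 2 scans in A and B, and no record for G. Genes induced by environmental stress moved the other way between the experiments, with medians of -0.63 in edc3Δ and -0.47 in wild type for E and G minus A, B and C. The part of scanning or of culture state in the difference between experiments was not tested.

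Other genes of ribosome synthesis were counted by list, against 51.1% of all probe sets below 0 and 10.2% in each direction in all 5 experiments. Of 99 further assembly factors, all tested, 83 were below 0, with a median of -0.12, 41 were lower in all 5 experiments (41.4%) and 1 was higher in all 5. None was called by limma in either fit. The smallest p values were those of NOP53, a large-subunit factor, at -0.35 ± 0.10 (SE, adjusted p = 0.719; 0.0622 with the block), and GRC3, a kinase in rRNA processing, at -0.41 ± 0.14 (SE, adjusted p = 0.909; 0.0892 with the block), each lower in all 5 experiments. Of 15 tested genes for transcription by RNA polymerase I, 11 were below 0 (73.3%) and 0 were called, with RPA12, a subunit of the enzyme, at -0.30 ± 0.13 (SE) and HMO1, a chromatin protein of rRNA genes, at 0.15 ± 0.09 (SE). In all 5 experiments 4 of the 15 were lower (26.7%) and 0 were higher. Of 11 tested regulators of ribosome synthesis genes, 7 were below 0 (63.6%) and 0 were called, among them the repressor DOT6 at -0.20 ± 0.12 (SE) and TCO89, a subunit of the TOR kinase complex, at -0.18 ± 0.11 (SE). Of these 11 regulators, 4 were lower in all 5 experiments (36.4%) and 1 was higher in all 5 (9.09%).

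Of 81 cytoplasmic ribosomal protein genes with a probe set of their own, 54 were below 0 (66.7%), with a median of -0.03, and in all 5 experiments 14 were lower (17.3%) and 7 higher (8.64%). Many of these have a near-identical copy, so RPL15B at -0.43 ± 0.13 (SE) and RPL9B at 0.23 ± 0.08 (SE), the 2 of smallest p, may share signal with it. Genes induced by environmental stress lay on the other side: 23 of 31 were above 0, with a median of 0.11, and in all 5 experiments 12 were higher (38.7%) and 2 lower (6.45%), against 10.2% of all probe sets in each direction. HOR2, a glycerol phosphatase, differed by 0.31 ± 0.09 (SE) and GPD1, the enzyme before it in glycerol synthesis, by 0.26 ± 0.13 (SE), neither called. With the block limma called 1 gene of this list higher, HXK1, a hexokinase, at 0.27 ± 0.04 (blocked SE, adjusted p = 0.0481; 0.999 without the block), against 0.231% of all probe sets called higher. The blocked call was lost with E and G averaged (limma adjusted p = 0.139) and in A, B and C alone (0.246). It was also lost without any one of the 5 experiments (0.0544 to 0.179). The medians of the stress list were 0.13, 0.23, 0.09, 0.01 and 0.07 in A, B, C, E and G, so they were farthest from 0 in B, as the ribosome biogenesis list was. The part of a stress or growth difference between the cultures in these values was not tested.

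**Figure D4:**
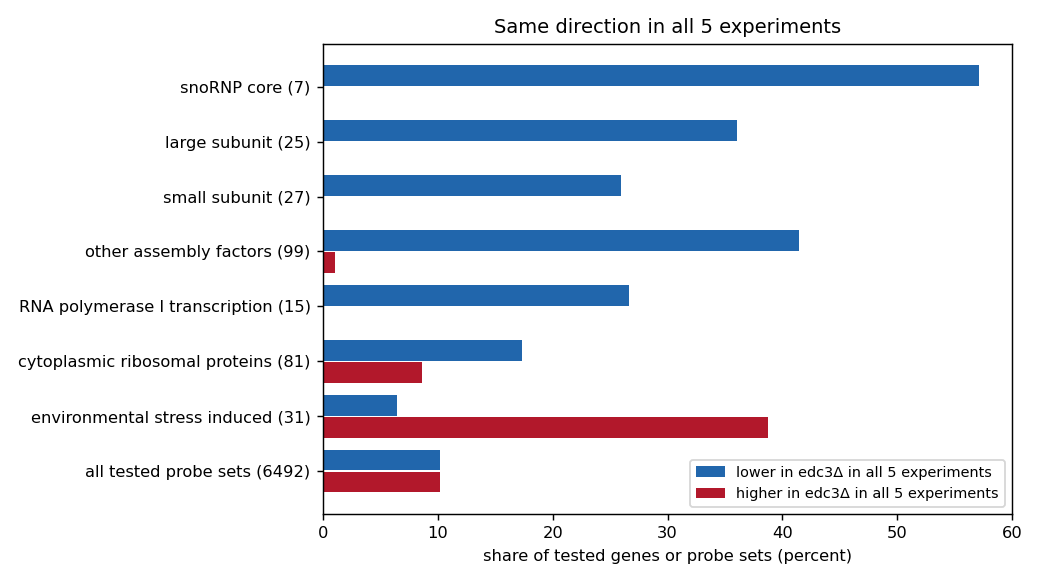
Bars give the percent of tested genes of each list, and of all 6492 probe sets, that were lower (blue) or higher (red) in edc3Δ in all 5 experiments, with the number tested in brackets. The snoRNP core, subunit factors and other assembly factors reach 25.9% to 57.1% lower and at most 1.01% higher, the stress list 38.7% higher, and all probe sets 10.2% in each direction.

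RNA quality controls overlapped between the strains and leaned the same way. These are log2 differences between control probe sets near both ends of a transcript (3′ minus 5′). For SRB4 they were 2.39 to 3.58 in edc3Δ, against 2.59 to 4.40 in wild type, lower in edc3Δ in 4 of 5 experiments with a mean difference of -0.31 (exact permutation p = 0.437). For SPT15 they were 2.18 to 2.41 in edc3Δ, against 2.11 to 2.57 in wild type, lower in 4 of 5 with a mean difference of -0.16 (exact permutation p = 0.143). For ACT1 they were 0.60 to 0.91 in edc3Δ, against 0.69 to 0.99 in wild type, lower in all 5 with a mean difference of -0.07 (exact permutation p = 0.381). The array also carries control probe sets for the ribosomal RNA on which these factors act. Those of the small-subunit rRNA, at most 18.4 in signal and so about as dim as the probe sets left untested, had a mean log2 signal of 1.59 ± 0.42 in edc3Δ and 0.27 ± 0.73 in wild type (SD, n = 5 each). They were higher in edc3Δ in 4 of 5 experiments (exact permutation p = 0.0238; 0.119 adjusted over the 5 quality measures). Those of the large-subunit rRNA, averaged over probe sets, were at 2.48 ± 0.39 in edc3Δ and 2.12 ± 0.61 in wild type (exact permutation p = 0.325, SD, n = 5 each). The brightest of them in A, B and C read 46.1, 110.2, 83.8, 25.1 and 14.4 in edc3Δ, against 17.9, 98.7, 44.8, 6.7 and 5.1 in wild type. It was higher in edc3Δ in all 5 experiments (exact permutation p = 0.254). Each of the other large-subunit rRNA probe sets was lower in edc3Δ in 1 to 3 of the 5 experiments. The permutation tests of these quality and rRNA measures ignored the pairing by letter, and no paired test of them is given. The part of these measures in the members' differences was not tested.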

How the data were processed

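Total RNA of each of the 10 samples was measured on its own array. The deposited values are intensities, which the authors obtained as MAS5 signals, per the submitters' processing notes, which give no version. The deposited arrays were already scaled: their 2%-trimmed means differed by 0.0186% at most. No detection calls or probe-level values were used.

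Signals were converted to log2, with the 156 zeros raised to 0.1, and the dimmest 30% of the 9275 probe sets (mean signal under 16.8) and 60 controls were left out, which left 6492. The test was lmFit with eBayes and a trend (limma 3.58.1, R 4.3.3), 5 arrays against 5 without a block. The scripts were tested on simulated data. The probe set with the highest mean signal stood for a gene. Exact two-sided permutation tests used the 10 arrays and ignored the pairing by letter. The median signal of an array was 58.2 to 66.8, and 5 arrays per strain limit the precision.

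Same-lettered arrays deviated together (correlations of 0.475 to 0.713 across probe sets, each array nearest to its own letter), which with the shared letters was taken as pairing, and the recorded chip lot is common to both strains in A, B and C, and the recorded hybridisation day in A, B and E. Alternatives varied the block, filter, offset, scaling, variance prior, weights, chip lot, probe set rule and replicates.

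The members, lists and groupings were chosen with earlier results of these data known. The rule for naming took EDC3, called members, the 4 (snoRNP core) or 6 (each subunit) members of smallest p, the extremes of each class, members whose probe sets disagree and 2 genes per other list; members outside it are given by complex so that each is accounted for. Promoter motifs were planned and not analysed here, since no sequence table was at hand.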

Additional observations from a re-analysis of the deposited data

Results flagged for a closer look

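Among 64 sets of 5 values checked (the named members in each strain, their differences by experiment, and the medians by role), 2 had 1 value far from the other 4, and chance flags about 1 in 20. The EBP2 signal of edc3Δ in experiment B, 210.3, lay below the other edc3Δ arrays at 249.8 to 264.4, with a gap that is 0.752 of the whole range on the log2 scale. Without that array the EBP2 difference was -0.30, against -0.36 with it. The NHP2 difference in experiment C, -0.06, lay apart from -0.15 to -0.18 in the other experiments, with a gap of 0.794 of the range.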

How the results depend on the processing

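The list kept a median below 0 under all settings tried, but its size, and the sign for the small subunit, depended on which arrays entered. Differences are log2, edc3Δ minus wild type. Among 6492, the count of all probe sets called was 5 without a block, 29 with the letter as a replicate block, 3 with E and G averaged (8 with the block), 2 in A, B and C alone (3 with the block), 1263 in the nearly alike arrays of E and G alone, 3 without a trend, 106 with array weights and 10 with the chip lot as a block. A chip lot is recorded only for A, B and C, with B and C sharing one. In the chip lot fit E and G, without a known lot, each stood as a level of its own. Leaving out 1 array gave 3 to 4, and leaving out A, B, C, E or G with the replicate block gave 8, 30, 26, 8 or 7. Called members numbered 0 without and 2 with the replicate block, and 0 to 1 with the block and 1 experiment left out. In E and G alone 13 of 59 members were called lower and 7 higher. That fit called 1263 of all 6492 probe sets, a count not split here by direction. The median of all members was -0.017 in E and G alone and -0.013 with array weights, and -0.19 to -0.015 with 1 array left out. That of the large subunit was -0.017 in E and G alone. That of the small subunit was -0.17 in A, B and C alone in either fit, and above 0 in E and G alone (0.074), with array weights (0.077) and without edc3Δ A or B, in a range of -0.13 to 0.018 with 1 array left out. That of the snoRNP core was -0.20 to -0.013 with 1 array left out. Quantile normalization gave 2 members without overlap, with no share over all probe sets given for that setting, so the count is not read further. A, B and C alone gave 36 of 59 lower in every experiment, against 17.4% of all probe sets. The sign of single members turned as follows. In A, B and C alone, in either fit, SNU13 was at 0.0014, NOP4 at -0.14 and ENP1 at -0.17. In E and G alone REA1 was at 0.0080, UTP20 at 0.12 and UTP22 at 0.0027. UTP20 was at 0.096 with array weights. The SNU13 log2 difference was 0.0093 with quantile normalization, and with probe sets averaged NOP58 was at 0.020 and UTP22 at 0.61. The UTP22 average takes in all 6 of its probe sets. Only 2 of them were bright enough to test, at -0.05 and 0.02, so 0.61 rests on dim probe sets. UTP20 was not among the 58 members tested in that setting. With 1 array left out the ranges were -0.084 to 0.058 for SNU13, -0.062 to 0.22 for NOP4, -0.076 to 0.055 for UTP20 and -0.11 to 0.024 for UTP22. With the block, NOP4 was at -0.014 without E, and UTP20 at 0.038 without A and 0.014 without C. The causes were not tested. The blocked fit changed no call of a member other than CBF5 and ERB1. A median near 0 does not show that a gene did not differ. The alternative for the promoter window was not run.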
